A study of Drosophila melanogaster with 8 samples.

Results

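The heat shock genes described here are 10 genes of Drosophila melanogaster, chosen by symbol: the small heat shock protein genes Hsp22, Hsp23, Hsp26, Hsp27, Hsp67Ba and Hsp67Bc, the Hsp70 family genes Hsp68 and Hsc70-4, the Hsp90 gene Hsp83, and Hsf, which encodes the heat shock factor. A gene counted as measured where a probe set was annotated to it and to no other gene. By that rule 5 of the 10 were measured (Hsp26, Hsp27, Hsp68, Hsc70-4 and Hsf, 1 probe set each), out of 11983 measured genes on the array. Hsp22 was represented only by probe sets that it shares with a neighbouring gene, and these are given separately. Hsp23, Hsp67Ba, Hsp67Bc and Hsp83 were not listed in the annotation used here and have no value.

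Expression was measured on Affymetrix Drosophila Genome 2.0 arrays in whole SZ females. SZ is a composite population made from the Zimbabwean (Z strain) isofemale lines ZS2, ZS11, ZS53, ZS56, ZH12 and ZH32. In the first group (ZxZ) the females had mated with SZ males, and in the second (ZxM) they had mated with cosmopolitan (M strain) males of LHM, an outbred stock from California. Each of the 4 arrays per group held RNA from 1 pool of 8 females, aged 7 days after eclosion and frozen 30 min after copulation ended. Both matings were made in each of 4 replicates. All flies were reared at 25 °C, no group was heated and no unmated group was among the 8 arrays, so the values compare the males that the females mated with and hold no heat shock. Because whole bodies were pooled, fewer cells of a type and less RNA per cell cannot be told apart.

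Heat shock proteins are molecular chaperones. When proteins unfold, the heat shock factor forms trimers, binds heat shock elements in front of its target genes and releases RNA polymerase that is paused just past their start sites. Small heat shock proteins hold unfolded proteins in solution, and the ATP-driven Hsp70 and Hsp90 machines refold them with J-domain proteins and other partners. In Drosophila several of these genes are also transcribed without heat during development: Hsp26, Hsp27 and Hsp83 are active in the nurse cells of the ovary, and Hsc70-4 is the constitutive Hsp70 of the cytosol.

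No measured heat shock gene passed the test for a difference between ZxZ and ZxM females. Values are deposited log2 signals, and all differences are log2 ZxZ minus ZxM from limma with array weights, tested with Benjamini-Hochberg adjustment at 10% FDR. Only the more variable 50% of genes by interquartile range entered the main test (5991 genes), and Hsp26, Hsp27 and Hsc70-4 were among them. Of these 3 genes 0 were called, against 18.7% of all genes tested (17.6% lower in ZxZ females and 1.1% higher). At an unadjusted p under 0.05 the count was also 0 of 3, against 2094 of all 5991 genes tested. Hsp68 and Hsf were too uniform over the 8 arrays to be tested and were read from a fit over all measured genes, in which 0.0% of genes were called. In that fit 1 of the 5 genes, Hsc70-4, had an unadjusted p under 0.05, against 21.1% of all measured genes. The ZxZ and ZxM values overlapped for all 5 genes, whereas they did not overlap for 10.2% of all measured genes (8.68% with all ZxZ values lower).

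Hsp26, a small heat shock gene of the 67B cluster on 3L, had values of 14.29, 14.20, 14.02 and 14.14 in ZxZ pools 1 to 4, against 14.10, 14.06, 14.19 and 14.07 in ZxM pools 1 to 4. The highest and the lowest of the 8 values were both from ZxZ females, and the ZxM values lay between them. The means were 14.16 ± 0.110 in ZxZ females and 14.10 ± 0.0593 in ZxM females (SD, n = 4 each). The difference was 0.034 ± 0.0624 (SE), with an adjusted p of 0.697, and it fell below 0 after quantile normalization (-0.010), after each array was centred on its median (-0.019) and without ZxZ pool 1 (-0.030). Its 95% interval, -0.10 to 0.17, corresponds to folds of 0.931 to 1.13.

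Hsp27, at an end of the same cluster, encodes a small heat shock protein found in the nucleus as well as the cytoplasm. It had values of 13.39, 13.34, 13.25 and 13.31 in ZxZ pools, against 13.26, 13.27, 13.42 and 13.24 in ZxM pools. ZxM pool 3 held the highest value and the other 3 ZxM pools lay with ZxZ pool 3 at the low end. The means were 13.32 ± 0.0568 in ZxZ females and 13.30 ± 0.0813 in ZxM females, and the difference was 0.023 ± 0.0540 (SE, adjusted p = 0.764). The 95% interval, -0.096 to 0.14, corresponds to folds of 0.936 to 1.10. Hsp27 passed the variability filter narrowly, with an interquartile range of 0.0917 where the limit was 0.0908.

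Hsp68, on 3R, encodes a heat-inducible relative of Hsp70. Its values were 7.91, 8.15, 8.13 and 8.07 in ZxZ pools, against 8.03, 8.12, 8.18 and 8.11 in ZxM pools. The lowest value was that of ZxZ pool 1, and the other 7 were intermixed. The means were 8.06 ± 0.109 in ZxZ females and 8.11 ± 0.0595 in ZxM females. The difference in the fit over all measured genes was -0.025 ± 0.0567 (SE, adjusted p = 0.820), with a 95% interval of -0.15 to 0.10, or folds of 0.901 to 1.07, and it was above 0 without ZxZ pool 1 (0.027) or ZxM pool 4 (0.0049).

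Hsc70-4, also on 3R, folds newly made proteins and uncoats clathrin vesicles in unstressed cells. It had values of 14.64, 14.67, 14.60 and 14.51 in ZxZ pools, against 14.50, 14.40, 14.62 and 14.40 in ZxM pools. The ZxZ values were the higher ones except that ZxM pool 3 lay above ZxZ pools 3 and 4. The means were 14.61 ± 0.0681 in ZxZ females and 14.48 ± 0.105 in ZxM females. The difference was 0.11 ± 0.0584 (SE), with a 95% interval of -0.016 to 0.24 (folds of 0.989 to 1.18), an unadjusted p of 0.0790 and an adjusted p of 0.184 from limma. In the fit over all measured genes it was 0.14 ± 0.0527, with a 95% interval of 0.021 to 0.25, an unadjusted limma p of 0.0250 and an adjusted p of 0.189. After quantile normalization the difference was -0.0067 ± 0.0355.

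Hsf, on 2R, encodes the single heat shock factor of the fly, which is regulated mainly after translation. Its values were 11.63, 11.61, 11.62 and 11.51 in ZxZ pools, against 11.65, 11.63, 11.66 and 11.66 in ZxM pools. ZxZ pool 4 stood below the rest, and the other ZxZ values came close to the ZxM values but only pool 1 reached into their range. The means were 11.59 ± 0.0564 in ZxZ females and 11.65 ± 0.0137 in ZxM females. The difference was -0.051 ± 0.0379 (SE, adjusted p = 0.438 in the fit over all measured genes) and 0.028 after quantile normalization. Its 95% interval as deposited was -0.14 to 0.032, or folds of 0.911 to 1.02, and its interquartile range was in the lowest part of all genes (percentile 4.92).

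**Figure D1:**
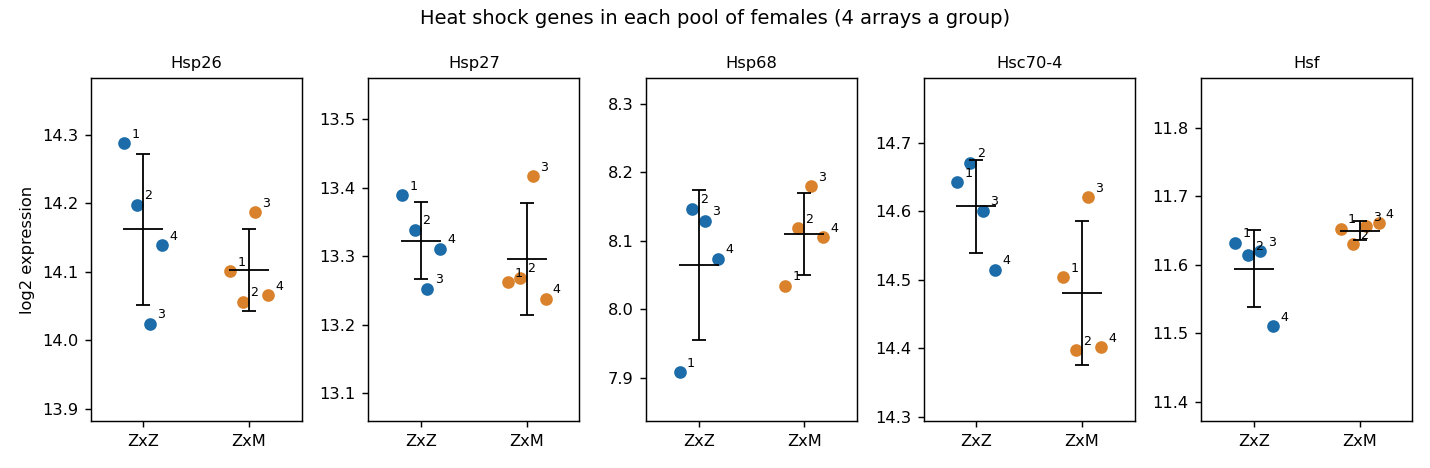
Log2 expression (vertical axis) of the 5 measured heat shock genes in each pool of ZxZ females (left, blue) and ZxM females (right, orange), with the replicate number beside each point and the mean ± SD of 4 arrays as bars. All panels span the same number of log2 units, and the groups overlap in each, as for Hsp26 with 14.02 to 14.29 in ZxZ females against 14.06 to 14.19 in ZxM females.

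**Figure D2:**
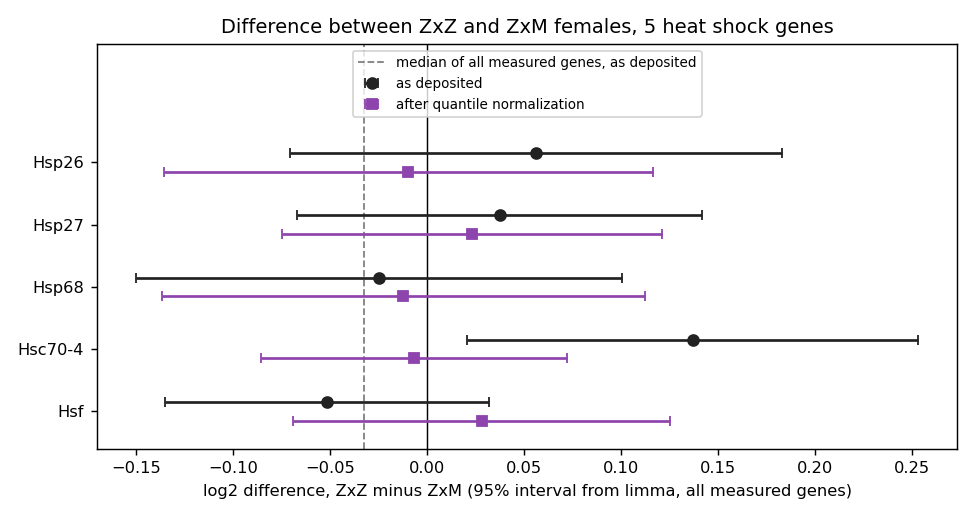
Log2 difference (horizontal axis, ZxZ minus ZxM, with the 95% interval from the limma fit over all measured genes) of the 5 heat shock genes as deposited (black circles) and after quantile normalization (purple squares). The interval of Hsc70-4 lay above 0 as deposited (0.021 to 0.25) and included 0 after quantile normalization.

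The differences of all measured genes varied with their level. Over all measured genes the median difference was -0.10 at levels of 10 to 11, 0.018 at levels of 13 to 14 and 0.12 at levels of 14 and above, where 47 of 49 genes had a positive difference. The following comparison sets each heat shock gene beside the measured genes within 0.5 log2 units of its own mean level, and was added after the data had been seen. Around Hsc70-4 there were 44 such genes, with a median difference of 0.12 and quartiles of 0.10 and 0.14, and the value of Hsc70-4 in the same fit (0.14) lay within the quartiles. Hsp26, at 0.056 in that fit, lay below the median of its 59 neighbours in level (0.10) and just below their lower quartile (0.060). Hsp27, at 0.037, lay above the median of its 98 neighbours (-0.0043). Hsp68 was next to the median of 1314 genes (-0.028), and Hsf lay above the median of 633 genes (-0.084). Hsp27, Hsp68 and Hsf lay within the quartiles of their neighbours.

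**Figure D3:**
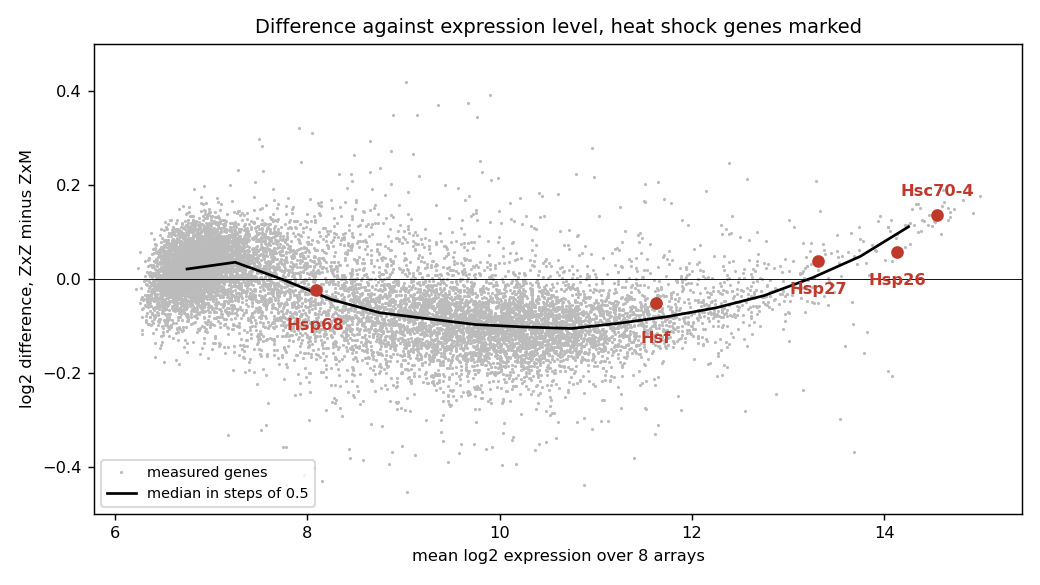
Log2 difference, ZxZ minus ZxM (vertical axis, limma fit over all measured genes), against mean log2 expression over the 8 arrays (horizontal axis). Grey points are measured genes, of which 14 lie outside the plotted range, the black line is their median in steps of 0.5, and red points are the 5 heat shock genes. The line is below 0 in the middle of the range and above 0 at its upper end, where Hsc70-4 (0.14) lies.

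The 67B cluster holds most of the small heat shock genes of the fly. In RefSeq's annotation of Release 6 plus ISO1 MT, the cluster's protein-coding genes are, in order, Hsp67Bc, CG4456, Hsp22, CG4461, Hsp26, Hsp67Ba, Hsp23 and Hsp27. CG4461, a small heat shock gene between Hsp22 and Hsp26, had values of 10.33, 10.52, 10.22 and 9.97 in ZxZ pools, against 10.23, 9.94, 10.56 and 10.32 in ZxM pools. The pools of both groups covered nearly the same range, and the difference was -0.044 ± 0.117 (SE, adjusted p = 0.794). In the fit over all measured genes it was 0.0081. The 8 measured genes that flank the cluster (Klp67A, mRRF1, CG4452, Fdx1, CG4080, eIF4E1, Cpr67B and CG4022) included 0 called genes, but only 3 of them passed the filter and were tested, against 18.7% called of all genes tested.

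Hsp22, whose product works in mitochondria, shares 2 probe sets with CG4456, the gene also known as Hsp67Bb. The brighter of them had values of 10.16, 10.42, 10.19 and 9.93 in ZxZ pools, against 10.27, 10.17, 10.54 and 10.25 in ZxM pools. The lowest value was that of ZxZ pool 4 and the highest that of ZxM pool 3, and the groups overlapped. In a fit over all 18769 probe sets that are not controls, which was added after the data had been seen and in which 0.0% were called, the difference was -0.10 ± 0.0900 (SE, adjusted p = 0.573). The second probe set of the pair gave -0.038 (adjusted p = 0.676). What comes from Hsp22 and what from CG4456 cannot be told apart in these probe sets.

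The strongly heat-inducible Hsp70 genes are near-identical copies, and the array carries them only on shared probe sets. The probe set of Hsp70Aa and Hsp70Ab had values of 7.31, 7.28, 7.12 and 7.35 in ZxZ pools, against 7.32, 7.61, 7.34 and 7.47 in ZxM pools. ZxM pools 2 and 4 were the highest, ZxZ pool 3 the lowest, and the other 5 values lay close together. The difference was -0.17 ± 0.0664 (SE), with an unadjusted p of 0.0293 and an adjusted p of 0.236 from the same limma fit. The 2 probe sets shared by Hsp70Ba, Hsp70Bb, Hsp70Bbb and Hsp70Bc differed by -0.029 and -0.040, and their groups overlapped. Their means were 7.15 and 6.42 in ZxZ females, against 7.17 and 6.46 in ZxM females. The lowest value on any array was 6.05, so these signals were low. The probe set shared by CG31343, Hsp70Bb and Hsp70Bc was the brightest and most variable of these. It had means of 10.71 ± 0.384 in ZxZ females and 10.86 ± 0.316 in ZxM females and differed by -0.060 ± 0.173 (SE, adjusted p = 0.884). CG31343 is outside the heat shock lists, and its part in this signal cannot be told apart from that of the Hsp70 genes. A further probe set of Hsp70Bb and Hsp70Bc alone, also low with means of 6.67 in ZxZ and 6.72 in ZxM females, differed by -0.050 (adjusted p = 0.525). Its groups did not overlap, although the highest ZxZ and the lowest ZxM value were both 6.70 after rounding.

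**Figure D4:**
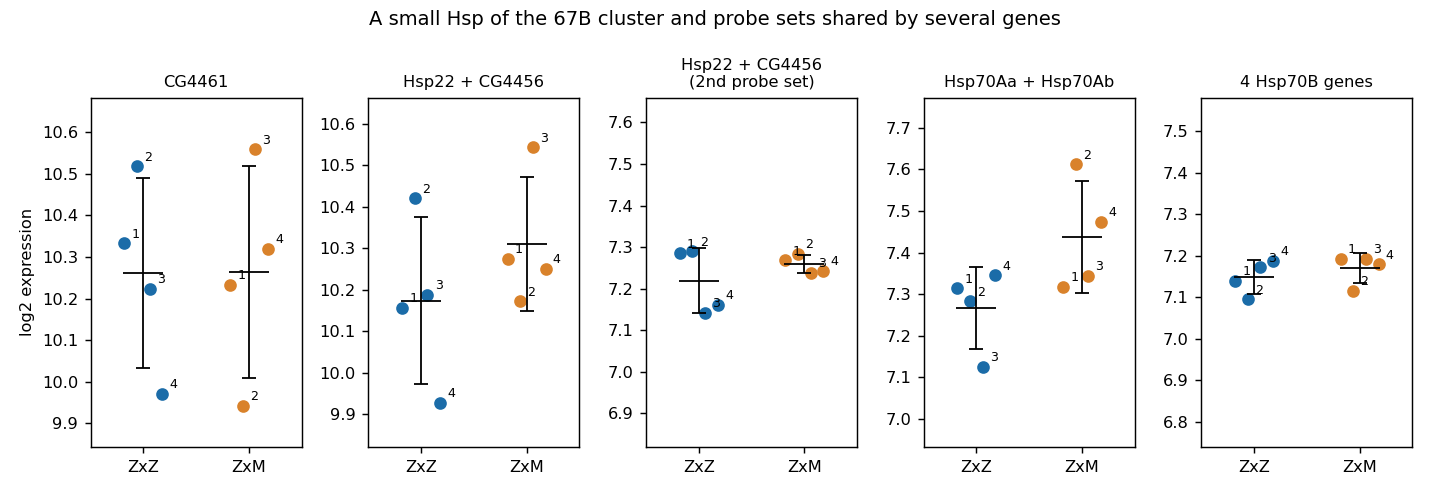
Log2 expression (vertical axis) in each pool of ZxZ females (left, blue) and ZxM females (right, orange), with replicate numbers and the mean ± SD of 4 arrays, for CG4461 and for 4 probe sets annotated to several heat shock genes. The groups overlap in every panel, and the widest spread within a group is that of CG4461, with an SD of 0.229 in ZxZ females and 0.255 in ZxM females.

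Hsp26 and Hsp27 varied together between pools. Within ZxZ females both were highest in pool 1, then in pool 2, pool 4 and pool 3, and within ZxM females both were highest in pool 3. After the group means were removed, the Pearson correlation of Hsp26 with Hsp27 over the 8 arrays was 0.869. To the mean of this pair the correlation was 0.694 for Hsc70-4, 0.199 for Hsf and -0.260 for Hsp68, and of the other small heat shock genes it was 0.720 for CG7409, 0.692 for l(2)efl, 0.562 for CG4461 and -0.687 for CG13133. These correlations describe 8 arrays that were normalized together, and only 2 of the 6 small heat shock genes of the set entered the mean. The genes most like the pair among all measured genes were CG18190 (0.990), crim (0.990), viaf (0.989), mRpL20 (0.984) and Hsc20 (0.983). Of these, mRpL20 encodes a mitochondrial ribosomal protein and Hsc20 a J-domain protein of iron-sulfur cluster assembly. The upper quartile of the values on each array was 9.54, 9.52, 9.49 and 9.46 in ZxZ pools 1 to 4, against 9.61, 9.55, 9.64 and 9.56 in ZxM pools, so that ZxM pool 3 was also the array with the highest upper quartile. Within ZxZ females the upper quartile was highest in pool 1, as the pair was, but lowest in pool 4, whereas the pair was lowest in pool 3. The part of the upper quartile in the likeness was not tested.

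The partners and relatives of the heat shock genes were examined in 8 lists of chaperone and stress genes. Over all lists 74 of 93 genes were measured and 50 were tested, of which 6 were lower in ZxZ females and 0 were higher (12.0% called, against the 18.7% of all genes tested). In the fit over all measured genes the median difference of the 74 genes was -0.072, with 62 below 0, against -0.033 and 62.5% below 0 for all 11983 measured genes and 0.037 for the 5 heat shock genes. Set beside measured genes within 0.5 log2 units of their own levels, a comparison added after the data had been seen, the lists were close to their surroundings: the median of the medians around the 74 genes was -0.081, and on average 78.6% of the surrounding genes were below 0, against 83.8% of the 74. The groups did not overlap for 6 of the 74 (8.11%), against 10.2% of all measured genes. After quantile normalization the median of the lists was -0.011 with 40 of 74 below 0, and 0 genes were called. The count of 6 was also 0 without array weights and without the variability filter. It was 0 without ZxZ pool 3 or 4 or ZxM pool 1 or 3. Without ZxZ pool 1, ZxZ pool 2, ZxM pool 2 and ZxM pool 4 it was 22 of 49, 17 of 50, 20 of 50 and 22 of 42 tested. Over all genes the counts in these last fits were 2897, 2400, 2550 and 2968 of 5991. In each fit named here with 0 list genes called, the count over all genes was 0 too.

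Of the other small heat shock genes, 4 of 6 were measured and all 4 were tested, with 0 calls, against 18.7% of all genes tested. In the main test 3 of the 4 were below 0, and in the fit over all measured genes 2 of the 4. Of measured genes at the same levels 77.6% were below 0 on average in that fit. CG13133 had the smallest p (0.11 ± 0.0513, adjusted p = 0.140). For l(2)efl, whose product belongs to the alpha-crystallin family, the difference was -0.062 (adjusted p = 0.635), and for CG7409 it was -0.12 (adjusted p = 0.316). After quantile normalization 0 of the 4 were below 0 (0.039 for l(2)efl, 0.045 for CG7409, 0.075 for CG13133 and 0.085 for CG4461).

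In the rest of the Hsp70 family, 5 of 11 genes were measured and tested, and 1 was called, against 18.7% of all genes tested. Hsp110 encodes a nucleotide exchange factor that reloads Hsp70 with ATP. It had values of 11.32, 11.21, 11.24 and 11.16 in ZxZ pools, against 11.46, 11.41, 11.40 and 11.35 in ZxM pools. All ZxZ values lay below all ZxM values. Hsp110 fell by 0.18 on the log2 scale in ZxZ females (difference -0.18 ± 0.050, adjusted p = 0.0874), and the difference after quantile normalization was -0.067. The Hsp70 of mitochondria (Hsc70-5, -0.14, adjusted p = 0.169) and that of the endoplasmic reticulum (Hsc70-3, -0.11, adjusted p = 0.236) were not called.

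Among J-domain proteins and Hsp70 partners, 15 of 16 genes were measured and all 15 had a negative difference. Of these 9 were tested and 1 was called, against 18.7% of all genes tested. Of measured genes at the same levels 84.4% had a negative difference on average, and after quantile normalization 8 of the 15 were below 0. STUB1, a ubiquitin ligase that marks clients of Hsp70 for degradation, had values of 10.67, 10.68, 10.58 and 10.60 in ZxZ pools, against 10.77, 10.64, 10.86 and 10.80 in ZxM pools. ZxM pool 2 lay among the ZxZ values and the other ZxM pools above them. The difference was -0.16 ± 0.0522 (adjusted p = 0.0924) and -0.044 after quantile normalization. The synaptic vesicle chaperone gene Csp had a difference of -0.14 (adjusted p = 0.101), just outside the threshold. For P58IPK, a J-domain protein of the endoplasmic reticulum that did not pass the filter, it was -0.10 in the fit over all measured genes (adjusted p = 0.306). The 3 probe sets of jdp, another J-domain gene, disagreed in sign (0.10, -0.042 and 0.13).

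Of the Hsp90 relatives and co-chaperones all 11 were measured and all 11 had a negative difference (8 after quantile normalization, and 84.9% of measured genes at the same levels as deposited). Of 7 tested, 1 was called, against 18.7% of all genes tested. Dpit47, a co-chaperone that links Hsp90 with DNA polymerase alpha, had values of 9.79, 9.80, 9.81 and 9.75 in ZxZ pools, against 10.03, 9.89, 10.01 and 9.87 in ZxM pools. The groups did not overlap, and the ZxZ pools were closely alike. The difference was -0.18 ± 0.0517 (adjusted p = 0.0874) and -0.060 after quantile normalization. Sgt1 (-0.18, adjusted p = 0.109) and the immunophilin gene Fkbp59 (-0.15, adjusted p = 0.122) were not called.

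The chaperonins, ring-shaped folding chambers of the cytosol and the mitochondrion, gave 0 calls among 7 tested of 13 measured genes, against 18.7% of all genes tested. The median over all 13 chaperonins (-0.033) was close to that of all measured genes, and it was 0.0076 after quantile normalization. Hsp60D, which did not pass the filter, had values of 6.94, 6.88, 7.00 and 6.94 in ZxZ pools, against 6.86, 6.86, 6.86 and 6.87 in ZxM pools. The groups did not overlap (as for 10.2% of all measured genes), the ZxZ values being higher, and the difference was 0.079 ± 0.0373 (adjusted p = 0.252 in the fit over all measured genes). In that fit 2214 of 3375 genes at levels of 6 to 7 had a positive difference, and the lowest value on any array was 6.05. Neither the related Hsp60B (0.044, adjusted p = 0.558 in the same fit) nor CG11267 (-0.10, adjusted p = 0.288) was called.

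The regulators at heat shock loci include the negative elongation factor, whose subunits hold the paused polymerase at these genes. Of 12 genes 8 were measured, all with a negative difference (6 after quantile normalization, and 85.6% of measured genes at the same levels as deposited). Of 5 tested, 1 was called, against 18.7% of all genes tested. NELF-B had values of 10.004, 9.93, 9.89 and 9.92 in ZxZ pools, against 10.09, 10.13, 10.19 and 10.01 in ZxM pools. The groups did not overlap, although ZxZ pool 1 and ZxM pool 4 nearly met. The difference was -0.16 ± 0.0511 (adjusted p = 0.0888) and -0.051 after quantile normalization. The other subunit genes Nelf-E (-0.13, adjusted p = 0.109) and TH1 (-0.10, adjusted p = 0.131) were not called, and the TH1 groups did not overlap.

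Of the unfolded protein response genes, which serve the endoplasmic reticulum rather than the cytosol, 11 of 14 were measured. Of 8 tested, 2 were called, against 18.7% of all genes tested. Atf6 encodes a membrane-bound transcription factor that is cut free under stress. It had values of 9.37, 9.45, 9.37 and 9.33 in ZxZ pools, against 9.65, 9.37, 9.58 and 9.65 in ZxM pools. ZxM pool 2 lay among the ZxZ values, and the other ZxM pools lay above all of them. The difference was -0.23 ± 0.0589 (adjusted p = 0.0866), and -0.12 after quantile normalization. Herp, a membrane protein of the degradation machinery in the endoplasmic reticulum, had values of 11.10, 11.12, 10.95 and 10.93 in ZxZ pools, against 11.16, 11.09, 11.19 and 11.21 in ZxM pools. Here too ZxM pool 2 fell among the ZxZ values. The difference was -0.16 ± 0.0569 (adjusted p = 0.0960) and -0.039 after quantile normalization. PEK, the kinase that slows translation in this response, missed the threshold (-0.16, adjusted p = 0.101), and the 2 probe sets of the sensor gene Ire1 disagreed in sign (0.073 and -0.070).

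Oxidative stress genes gave 0 calls among 7 tested of 9 measured genes, against 18.7% of all genes tested. In the fit over all measured genes 6 of the 9 were below 0, where 72.5% of genes at these levels were. The 3 genes with the smallest p in that fit had the following values in the main test: Gclc, the catalytic subunit of the first enzyme of glutathione synthesis (-0.13, adjusted p = 0.115), maf-S, the partner of the Cnc factor (-0.17, adjusted p = 0.103), and the glutathione transferase gene GstD1 (0.074, adjusted p = 0.348).

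**Figure D5:**
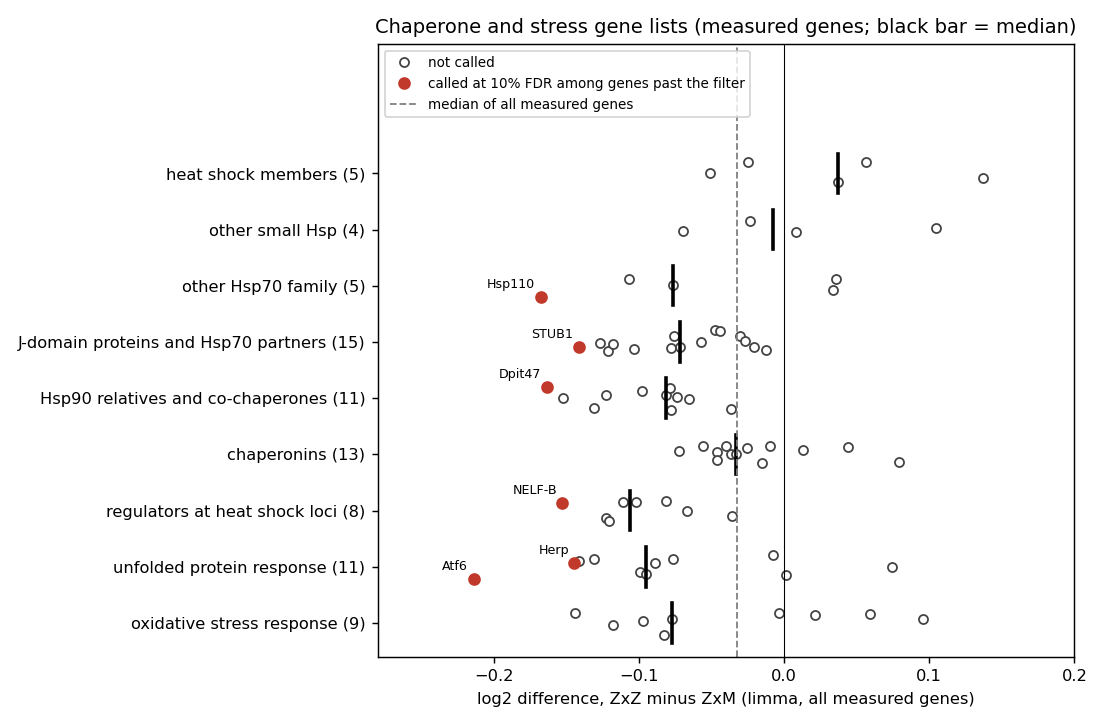
Log2 difference, ZxZ minus ZxM (horizontal axis, limma fit over all measured genes), of the 5 measured heat shock genes (top row) and of the measured genes in 8 chaperone and stress lists, with the number measured in brackets. Circles are genes, filled red for the 6 called in the main test (1 each in 4 lists and 2 in the unfolded protein response), black bars are list medians, and the dashed line is the median of all measured genes at -0.033.

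Pairs of arrays correlated at 0.996 to 0.998 and none held identical values. Marker genes of other tissues were compared in the same way. The mean level of 13 measured eggshell genes was 11.9 to 12.5 in ZxZ pools, against 12.1 to 12.8 in ZxM pools. All 13 differences were below 0, against 61.4% on average of measured genes at the same levels, and 13 of 13 were after quantile normalization. Of the 13 tested, 1 was called lower, against 17.6% of all genes tested. Germline genes, which include markers of the cells where Hsp26 and Hsp27 are transcribed without heat, averaged 10.93 to 10.98 in ZxZ pools, against 10.98 to 11.18 in ZxM pools. Of these, 4 of 8 tested were called lower, against 17.6% of all genes tested. The median of the germline genes was -0.060, where genes of their levels had -0.092, and it was 0.016 after quantile normalization. Yolk protein genes averaged 14.75 to 14.91 in ZxZ pools, against 14.57 to 14.78 in ZxM pools. Of the 3 tested, 1 was called higher, against 1.1% of all genes tested. The median of the yolk protein genes, 0.18, stood beside 0.14 for genes of the same levels, and it was 0.022 after quantile normalization, under which 0 genes of any list were called. Of the muscle, neuron, gut, hemocyte and testis lists 5, 4, 3, 2 and 3 genes were tested and 0 were called, against 18.7% of all genes tested. Of 9 male accessory gland genes 3 were tested and 1 was called higher, against 1.1% of all genes tested, with mean levels of 6.54 to 6.58 in ZxZ pools and 6.54 to 6.57 in ZxM pools, close to the lowest value on any array (6.05). The part of these lists in the heat shock values was not tested.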

How the data were processed

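Per the labels and methods, the authors deposited 1 table of log2 values for 18952 probe sets, made with VSN (background correction, calibration between arrays and a generalised log, which compresses differences of low signals) and RMA summarisation in affy under R 2.8.1. The genome build is not given in the sources used here, so no coordinates are printed. Gene names came from GEO's platform annotation, updated by Entrez number. Of the probe sets, 13647 had 1 gene, 402 had several, 4720 were not listed and 183 were controls. Each of 11983 genes was represented by its most variable probe set, and the upper 50% by interquartile range (5991 genes) were tested.

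Differences were fitted over all 8 arrays in R 4.3.3 with limma 3.58.1 (lmFit, REML array weights of 0.505 to 1.75, eBayes, two-sided, Benjamini-Hochberg over all genes tested, 10% FDR), with no covariate. The same fit over all 11983 genes gave values for genes under the filter. Scripts were tested on simulated data. Detection calls were not used here, so a low value cannot be told from no expression, and precision is limited by the small number of arrays. The p values set the difference between the groups against the spread between pools within a group, which eBayes moderates over genes. The heat shock genes and all lists were chosen with earlier results of these data known. Named are all 10 genes, up to 3 genes of each list with the smallest p over all measured genes, and the 5 genes most like the mean of Hsp26 and Hsp27. jdp and Ire1 were named after their values were seen. Alternatives changed the weights, filter, probe set choice, normalization and prior, blocked on replicate number, or left out each array.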

Additional observations from a re-analysis of the deposited data

Results flagged for a closer look

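Of 74 groups of 4 values examined among the heat shock genes and shared probe sets, 2 held a value apart from the other 3. The gap to the nearest value, divided by the range, exceeded Dixon's critical value, which chance gives in about 1 of 20 groups. Hsf was 11.51 in ZxZ replicate 4, with the nearest ZxZ value at 11.61 (gap over range 0.853). Without that array the difference of Hsf was -0.030, against -0.051 with it. The probe set shared by Hsp70Bc and Hsp70Bb was 6.58 in ZxZ replicate 1, with the nearest ZxZ value at 6.70 (gap over range 0.966).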

How the results depend on the processing

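Under all 18 alternatives 0 heat shock genes were called. Any gene of the array was called under only 9 of the 18, so the rest could show no call of a heat shock gene. In those 9, only 2 or 3 of the heat shock genes were tested. Over all genes 1123 of 5991 were called in the main fit. The count was 0 without array weights (1365 genes with p under 0.05 before adjustment), without the filter (2529), with every probe set tested (2718), after quantile normalization (566) and with an interquartile range of at least 0.5, which left 51 genes (5). It was 3682 with each array centred on its median, and 0 to 2968 with an array left out. Without the lowest 25% of probe sets it was 1460 of 5059 genes, and with a trended robust prior 1159 of 5991. In the chaperone and stress lists 6 genes were called, against 0 without array weights, after quantile normalization, with no filter, with every probe set and at the interquartile limit of 0.5 (0 tested), 10 without the lowest 25% of probe sets, 10 with a trended robust prior, 35 after centring, and 0 to 22 with an array left out. All 6 were called again under 8 alternatives, centring among them. Under quantile normalization 2 of the 6 were tested.

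In the paper every replicate held both matings, but the labels do not state whether equal replicate numbers mark such pairs. Deviations of same-numbered arrays from their group means correlated at 0.144, -0.264, -0.196 and 0.157. These correlations cannot show whether the arrays were paired. With the replicate number as a block the count was 1 over all genes and 0 in the lists.

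The sign of Hsp26 changed after quantile normalization (-0.010, and -0.0097 without the filter), after centring (-0.019) and without ZxZ replicate 1 (range with an array left out -0.030 to 0.13). That of Hsp68 changed without ZxZ replicate 1 (0.027) or ZxM replicate 4 (0.0049), within a range of -0.069 to 0.027, and those of Hsf (0.028) and Hsc70-4 (-0.0067, without the filter) after quantile normalization. With an array left out Hsc70-4 ranged from 0.085 to 0.17, Hsp27 from 0.0076 to 0.070 and Hsf from -0.061 to -0.030. The range of Hsp27 is incomplete. It did not pass the filter without ZxZ replicate 1 or ZxM replicate 3, which held its highest values (13.39 and 13.42), nor after centring. The cause of these changes was not tested. At an interquartile range of at least 0.5 no heat shock gene was tested.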
